A study of Mus musculus with 10 samples.

Results

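Pla2g2a encodes a secreted phospholipase A2 of the group IIA type. It was measured here in crypts of the mouse small intestine, in 10 plates of 384 wells made by CEL-seq2, a method that tags each captured mRNA molecule with a random barcode. Its row was taken by its symbol and is 1 gene of 18022 listed over all plates. The gene was chosen for its pattern over cell classes and plates in these same data, so its own levels are given as a description, with no test. Of the plates, 5 hold sorted single cells of the experiment code GK5a, 2 hold sorted single cells of the code GK5b, and 3 hold doublets or triplets of cells picked by mouth pipette after a milder dissociation, here called picked replicates 1, 2 and 3. All 5 GK5a titles hold the mark M2, which the titles do not explain. The titles of the 2 GK5b plates end in G and L, and the titles do not explain these letters. Those plates are called GK5b replicates 1 and 2 here, though they may differ in what the letters mark. All 10 plates are labelled as strain C57Bl/6. The labels give no genotype, treatment, age or sex, and do not say which plates came from the same animal. Replicates here are therefore plates, and p-values measure the spread between plates, which may be technical.

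Secreted phospholipases A2 release a fatty acid and a lysophospholipid from membrane phospholipids. The group IIA enzyme kills Gram-positive bacteria and is a secretory product of Paneth cells, the granule-bearing cells at the crypt base that also release defensins and lysozyme. Goblet cells secrete the gel-forming mucin Muc2 and its companions. Both belong to the secretory lineage that depends on the transcription factor Atoh1. In mice, Pla2g2a is also known as Mom1, a modifier of the number of intestinal tumours in mice with a mutant Apc gene. The C57BL/6 strain is known to carry a frameshift in it.

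In the GRCm38 assembly (mm10), the build that the submitters' notes name, Pla2g2a lies on the plus strand at chr4:138831857-138835186 (ENSMUSG00000058908.14), and GENCODE M21 classes it as a polymorphic pseudogene. It holds 4 transcript models, and 2 of them carry the reading frame. They are shown because they differ in reading frame: the model Pla2g2a-203 reads exon 3 (chr4:138832891-138833036) through, and the model Pla2g2a-201 leaves out 4 bases of it, in capitals here. These bases are a difference between annotated models, not a mutation measured here.
Pla2g2a-203: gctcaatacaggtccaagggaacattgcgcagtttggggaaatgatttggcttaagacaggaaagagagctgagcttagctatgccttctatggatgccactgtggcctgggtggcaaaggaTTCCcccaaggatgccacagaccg
Pla2g2a-201: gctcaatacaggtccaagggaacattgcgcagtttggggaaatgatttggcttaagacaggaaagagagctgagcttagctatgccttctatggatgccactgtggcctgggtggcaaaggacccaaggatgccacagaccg
The left-out bases are at chr4:138833013-138833016. Read from the start codon, the reference sequence of Pla2g2a-203 has 68 codons before its first stop codon, in exon 4. Without the 4 bases, Pla2g2a-201 has 145 codons before a stop in the last exon. The stop codon of Pla2g2a-203 is in capitals in the following stretch of the spliced transcript, which joins the end of exon 3 to the start of exon 4.
Pla2g2a-203 at its stop: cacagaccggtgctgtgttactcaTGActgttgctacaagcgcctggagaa
The tables hold counts per gene and no read sequence, so which form of the gene each plate carried was not tested. Pla2g2a lies inside the longer gene Pla2g5 on the opposite strand and shares 0 of its 928 exon bases with the exons of Pla2g5. The strand setting of the counting is not given in the sources used here.

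A well was used with at least 1000 transcripts of endogenous genes, which left 2116 wells, 1615 sorted and 501 picked, and from 122 to 264 per plate. The plates held from 821829 to 4832581 transcripts in used wells. Wells in which Defa genes, the alpha-defensins, made up at least 5% of transcripts were called Paneth-rich (59 wells). Wells in which Muc2, Fcgbp, Zg16 and Clca3 together made up at least 2% were called goblet wells (393), 0 wells met both rules, and 1664 were other wells. Pla2g2a itself was in neither rule. The picked plates held Xist at 115.3 to 154.6 CPM (transcripts of the gene per 1000000 of all) and 0 transcripts of the Y-linked Ddx3y and Eif2s3y, and the sorted plates held Ddx3y at 60.7 to 100.2 CPM and Xist at 0 to 0.978 CPM. Sorted and picked plates thus also differ in sex, while the 3 picked plates do not differ in it among themselves.

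In the sorted plates, Pla2g2a was among the main products of the Paneth-rich wells. Its level in a class is given as CPM, summed over the wells of the class. In GK5a replicates 1 to 5 it was 75187, 108221, 59962, 67049 and 84277 CPM, from 7, 8, 1, 9 and 6 wells. In GK5b replicates 1 and 2 it was 88811 and 76645 CPM, from 2 and 4 wells. Over the 4 GK5a plates with at least 3 Paneth-rich wells the mean was 83684 ± 17808 CPM (SD, n = 4), which is 8.37% of all transcripts, and both GK5b values lay inside the GK5a range. Every sorted Paneth-rich well held the gene. The lowest well, in GK5b replicate 2, was at 3.35% of its transcripts, and the highest, in GK5a replicate 2, at 16.9%.

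Picked replicate 1 stood apart from picked replicates 2 and 3, which were close to each other. Picked replicate 1 held 41376 CPM in 8 Paneth-rich wells, with single wells from 1.56% to 6.37% of transcripts. Picked replicate 2 held 1015 CPM in 8 wells, a total of 82 barcodes. Picked replicate 3 held 975.1 CPM in 6 wells, a total of 22 barcodes. Exact 95% binomial intervals on whole barcode counts, which cover counting error only, were 874.6 to 1365 CPM and 622.6 to 1504 CPM for these last plates. Their single wells ranged from 0 to 0.145% in replicate 2 and from 0 to 0.137% in replicate 3. The ranges of picked replicate 1 and of these plates do not overlap, and the class level in picked replicate 1 was 40.8 and 42.4 times that in replicates 2 and 3.

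**Figure D1:**
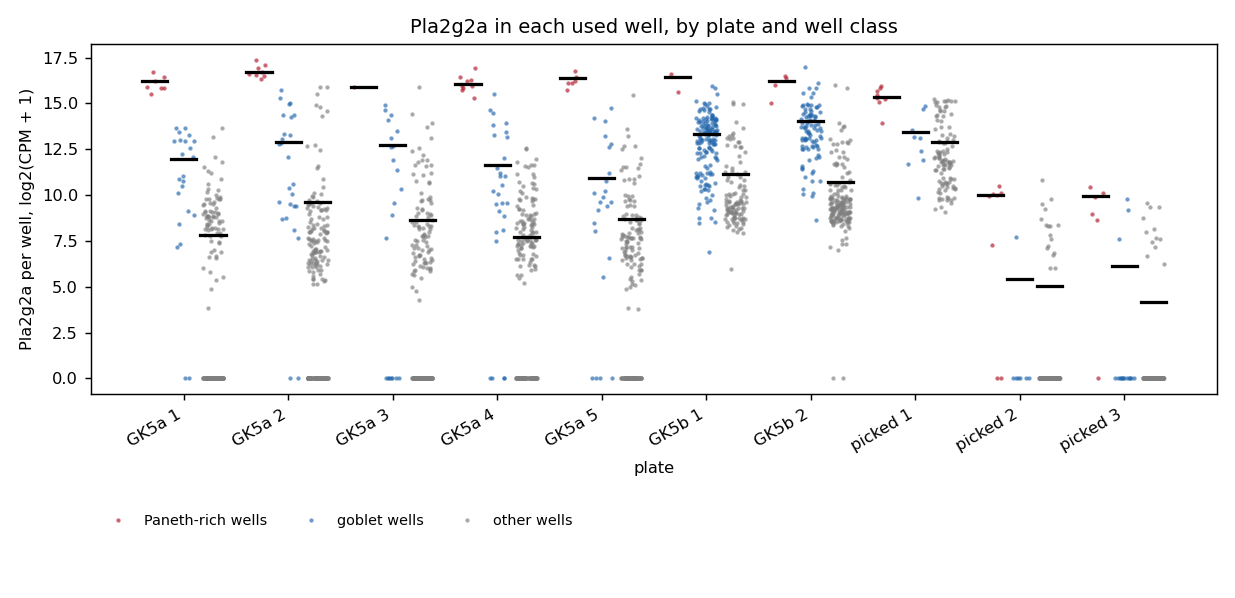
Pla2g2a in every used well as log2(CPM + 1), by plate and well class; each point is a well, points at 0 are wells with no transcript, and each black bar is the level of the summed wells of a class. The level of summed Paneth-rich wells is the highest of the 3 classes in all 10 plates, and those of picked replicates 2 and 3 (1015 and 975.1 CPM) lie far below those of picked replicate 1 (41376 CPM).

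The Paneth-rich wells of picked replicates 2 and 3 carried the other products of Paneth cells. Defa genes made up 20.1% and 13.8% of their transcripts, against 22.9% in picked replicate 1 and 9.44% to 14.9% in the sorted plates. The lysozyme gene Lyz1 had levels of 77821, 74571 and 35102 CPM in picked replicates 1, 2 and 3, and of 130853 ± 21878 CPM (SD, n = 5) over the sorted plates with at least 3 such wells. Mmp7, the protease that activates defensins, was at 1770, 1164 and 1198 CPM against 3544 ± 939.6. Ang4, an antimicrobial ribonuclease, was at 11395, 10525 and 20756 CPM against 16080 ± 6271. The median total of used wells was 7235, 2756 and 3528 transcripts in picked replicates 1, 2 and 3, and its part in the Pla2g2a levels was not tested.

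Of 16 other secreted Paneth genes with a mean of at least 100 CPM in those sorted wells, 8, 9 and 9 were below all 5 sorted plates in picked replicates 1, 2 and 3. The same count was not made over all genes of these wells, so nothing particular to the list is read from it. For the 16 genes, the median of the ratio of the sorted mean to the picked level was 1.65, 1.86 and 1.90. For Pla2g2a the same ratio was 1.99, 81.1 and 84.4. The next highest in picked replicate 2 was Habp2, a hyaluronan-binding protease, with a ratio of 29.5 that rests on 1 transcript, and in picked replicate 3 it was Mptx2, a pentraxin of Paneth cells, with 14.9. Spink4, a protease inhibitor also made by goblet cells, lay above all 5 sorted plates there, at 15029 and 41463 CPM against 5424 ± 3437 in the sorted wells.

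**Figure D2:**
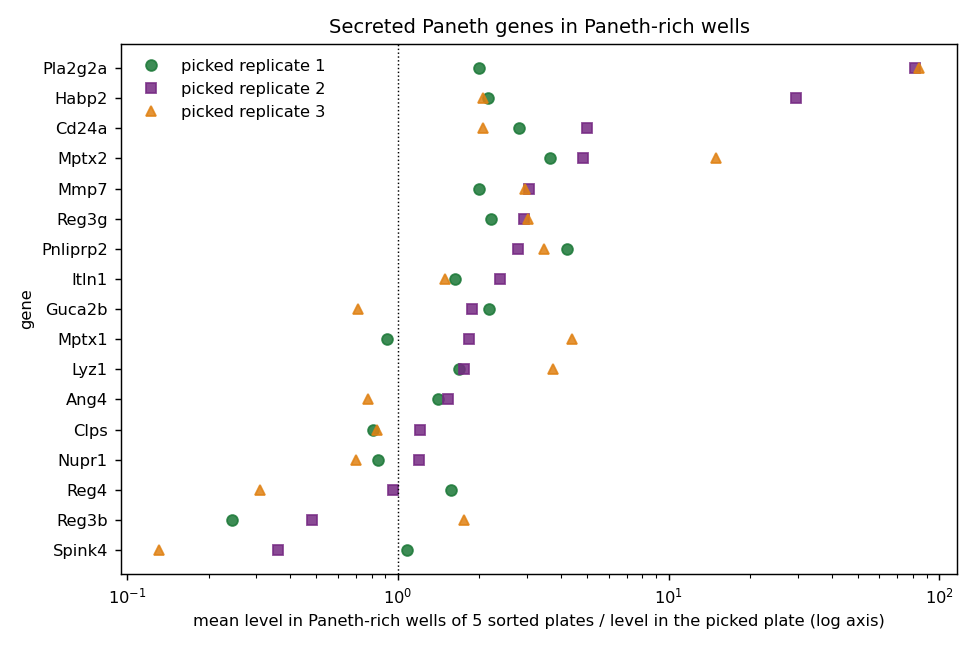
Ratio of the mean level over 5 sorted plates to the level in each picked plate, for Pla2g2a and 16 other secreted Paneth genes, all in Paneth-rich wells; the x axis is logarithmic and the dotted line marks equal levels. Pla2g2a stands at 81.1 and 84.4 for picked replicates 2 and 3 and at 1.99 for picked replicate 1.

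Set against the defensins of the same wells, Pla2g2a fell into the same order. There were from 0.403 to 0.812 Pla2g2a transcripts per Defa transcript in the Paneth-rich wells of the sorted plates, 0.180 in picked replicate 1, and 0.00505 and 0.00705 in picked replicates 2 and 3. Within a plate, the Defa share of a Paneth-rich well did not order its Pla2g2a level in one way. Spearman's rho over the 6 to 9 wells of a GK5a plate was 0.61, 0.60, -0.17 and -0.54 in replicates 1, 2, 4 and 5, and 0.76 over the 8 wells of picked replicate 1. These wells share a library and few points enter each value, so the correlations are a description.

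Goblet wells held Pla2g2a at a lower level, and more of it in GK5b than in GK5a. The levels were 4054, 7618, 6905, 3134 and 1981 CPM in GK5a replicates 1 to 5, a mean of 4738 ± 2431 CPM (SD, n = 5). In GK5b replicates 1 and 2 they were 10450 and 16644 CPM, a mean of 13547 ± 4380 CPM (SD, n = 2), from 151 and 90 wells. Both GK5b plates lie above all 5 GK5a plates. Picked replicate 1 held 10902 CPM in 9 goblet wells, picked replicate 2 held 41.0 CPM from 1 transcript in 7 wells, and picked replicate 3 held 68.5 CPM from 5 transcripts in 15 wells. The goblet level again separates picked replicate 1 from the other two.

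A goblet well of GK5b always held the gene, at 118.3 to 63350 CPM in replicate 1 and at 390.9 to 131463 CPM in replicate 2. In GK5a, between 66.7% and 92.3% of goblet wells of a plate had a transcript. The GK5b wells were deeper, with median totals of 11450 and 12493 transcripts in goblet wells against 3955 to 7482 in GK5a. With each well thinned to 1000 transcripts, 94.7% and 100% of GK5b goblet wells and 47.8% to 73.9% of GK5a goblet wells had the gene.

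The level by class and the number of wells together set where the transcripts were found. Paneth-rich wells made up 0.429% to 4.02% of used wells in the GK5a plates and held 37.3% to 79.1% of all Pla2g2a transcripts there. In GK5b replicates 1 and 2, goblet wells made up 57.2% and 34.5% of the wells and held 75.0% and 69.4% of the transcripts. Over all used wells, GK5b held 6348 ± 456.8 CPM (SD, n = 2) and GK5a 2264 ± 833.2 CPM (n = 5). In sums over a plate, fewer cells of a type and less RNA per cell cannot be told apart.

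Between the classes the order was the same in all 10 plates, with Paneth-rich wells above goblet wells and goblet wells above other wells. In picked replicate 2 the goblet level rests on 1 transcript (95% interval 1.04 to 229.5 CPM), and there the goblet and other wells changed places with a goblet threshold of 4% (0 against 33.0 CPM) and with a mean of CPM per well (29.4 against 41.3). The Paneth-rich level was 3.80 to 42.5 times the goblet level of the same plate, lowest in picked replicate 1 and highest in GK5a replicate 5. Around the threshold for Paneth-rich wells, the 5 wells just under it had Defa shares of 4.04% to 4.67% and Pla2g2a at 0 to 64655 CPM, and the 5 just over it 5.35% to 5.76% and 0 to 34607 CPM. Around the goblet threshold, wells at 1.94% to 1.98% held 0 to 7409 CPM and wells at 2.02% to 2.06% held 2884 to 31764 CPM.

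Across ranges of goblet share, with the plates of a code summed, Pla2g2a was lowest in wells of the lowest share and did not go on rising at the highest. In GK5b wells that were not Paneth-rich, the level was 546.9 CPM at a goblet share above 0 and under 0.1%. It rose to 1055 CPM at 0.1% to 0.5%, 4395 at 0.5% to 1%, 5808 at 1% to 2% and 16971 at 2% to 4%. It was 11647 CPM from 4% to 8% and 10299 CPM at 8% or more. Among the goblet wells of each GK5b plate alone, Spearman's rho with the goblet share was -0.12 and -0.22. In GK5a it rose from 144.1 CPM in wells without a goblet transcript to 6223 CPM at 2% to 4%, and was 4286 and 4303 CPM above that. Picked replicate 1 was highest, at 28790 CPM, in 12 wells of 1% to 2%, and its bins above that hold 2 to 5 wells each.

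**Figure D3:**
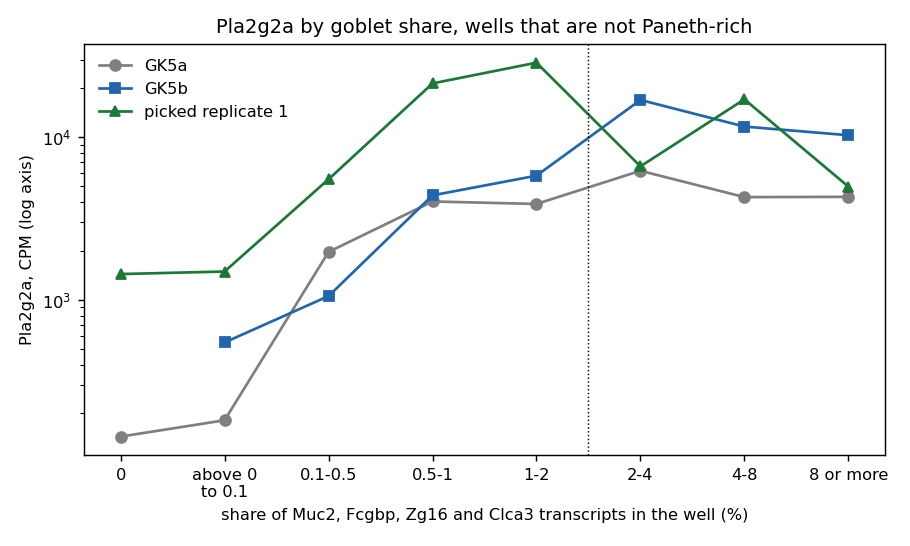
Pla2g2a (CPM, logarithmic axis) over the summed wells of each range of goblet share, without Paneth-rich wells, for GK5a plates, GK5b plates and picked replicate 1; the dotted line marks the 2% threshold of goblet wells. In GK5b the level rises to 16971 CPM at 2% to 4% and is 10299 CPM at 8% or more.

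Among the goblet wells of the GK5b plates, the genes that varied with Pla2g2a were Paneth genes and some goblet genes. Spearman's rho was taken over 151 and 90 wells, on shares of each well's transcripts, for list genes found in at least 20% of the wells. All 13 such genes of the Paneth list had a rho above 0 in both plates, with medians of 0.29 and 0.36. Mmp7 was highest, at 0.71 and 0.67, and Lyz1 was at 0.36 and 0.46. The Defa share had a rho of 0.60 and 0.66.

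Of 19 goblet genes, 6 had a rho above 0 and 9 a rho below 0 in both plates. Muc2, the mucin, was at 0.39 and 0.33, Guca2a, the gene of guanylin, at 0.42 and 0.39, and Retnlb, an antibacterial resistin-like protein, at 0.36 and 0.60. On the other side were Fcgbp, which binds mucin (-0.33 and -0.45), Clca3 (-0.30 and -0.49) and Zg16, a lectin of mucin granules (-0.22 and -0.38). The trefoil peptide Tff3 was at -0.09 and -0.17 and Agr2, which folds mucins, at -0.15 and -0.20. Fcgbp, Clca3, Zg16 and Muc2 define the goblet wells, wells of a plate share their library, and shares of 1 well sum to a whole, so these values are a description.

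**Figure D4:**
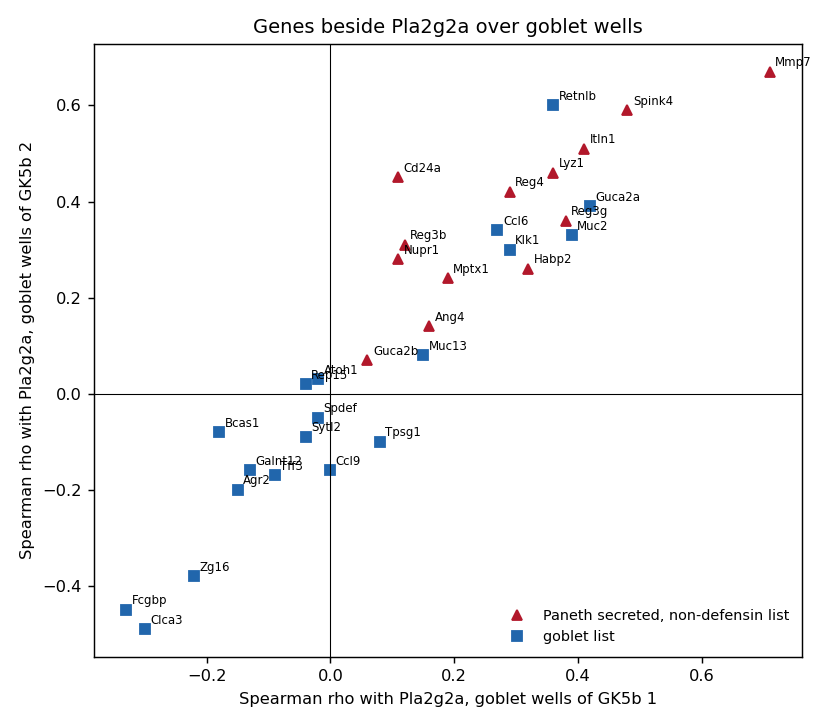
Spearman's rho between Pla2g2a and each list gene over the goblet wells of GK5b replicate 1 (x axis, 151 wells) and replicate 2 (y axis, 90 wells). Triangles (Paneth list) all lie above 0 on both axes with Mmp7 highest (0.71 and 0.67), and squares (goblet list) lie on both sides.

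Goblet wells that held no Defa transcript still held Pla2g2a. There were 39 and 19 of them in GK5b replicates 1 and 2, at 5016 and 7581 CPM, and 7 to 15 per GK5a plate, at 1030 to 3476 CPM. The means over plates were 6299 ± 1813 CPM (SD, n = 2) in GK5b and 2115 ± 966 CPM (n = 5) in GK5a, below those of all goblet wells. This subset was chosen after seeing the data and was not matched for depth. The part of Defa transcripts in the goblet level was not tested. In GK5b, 127 and 58 goblet wells with a transcript of a cell cycle gene were at 10382 and 17295 CPM, and the remaining 24 and 32 at 11349 and 15118 CPM, with no common direction. In GK5a the wells with such a transcript were lower in replicates 2 to 5 (1515 to 4000 against 2672 to 11948 CPM) and higher in replicate 1 (7099 against 3528 CPM). A single transcript makes this split, and the 2 sets were not matched for depth. Their median totals were 12711 and 14185 with and 3795 and 7737 without such a transcript in GK5b, and differed in both directions in GK5a.

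Other wells held little Pla2g2a in GK5a and more in GK5b and in picked replicate 1. The level was 225.3, 788.1, 402.1, 211.3 and 407.8 CPM in GK5a replicates 1 to 5, a mean of 406.9 ± 232.7 CPM (SD, n = 5). It was 2224 and 1674 CPM in GK5b, both above all 5 GK5a plates, and 7529, 32.1 and 16.9 CPM in picked replicates 1, 2 and 3. A transcript was seen in 45.5% to 60.7% of other wells in GK5a, in 100% and 98.8% in GK5b, in 100% in picked replicate 1, and in 10.4% and 6.70% in picked replicates 2 and 3. At 1000 transcripts per well those shares were 18.5% to 23.9%, 58.6% and 57.5%, 86.7%, and 2.44% and 0.559%.

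Wells that were left out also held the gene. Those wells, with under 1000 transcripts and a median of 72.5 to 181 in GK5a, held a mean of 1.15 to 3.10 Pla2g2a transcripts in GK5a, 1.79 and 1.45 in GK5b, 2.02 in picked replicate 1, and 0.0293 and 0.0163 in picked replicates 2 and 3. Other wells of GK5a held a mean of 1.29 to 8.16 transcripts and a median of 0 or 1, with single wells of up to 30.1 to 301.9. A transcript was seen in 33.5% to 44.6% of the left-out wells of GK5a, against 45.5% to 60.7% of its far deeper other wells. Among the left-out wells of GK5a, 3 to 8 a plate had Defa genes at 5% or more, and without these the mean was 0.577 to 1.01, below that of the other wells. Other wells of GK5b held means of 54.7 and 31.5 and medians of 19.0 and 10.0, and those of picked replicate 1 a mean of 59.8 and a median of 24.1, above the left-out wells of their plates. In picked replicates 2 and 3 the means were 0.140 and 0.101 in other wells, and 10.3 and 3.67 in Paneth-rich wells.

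**Figure D5:**
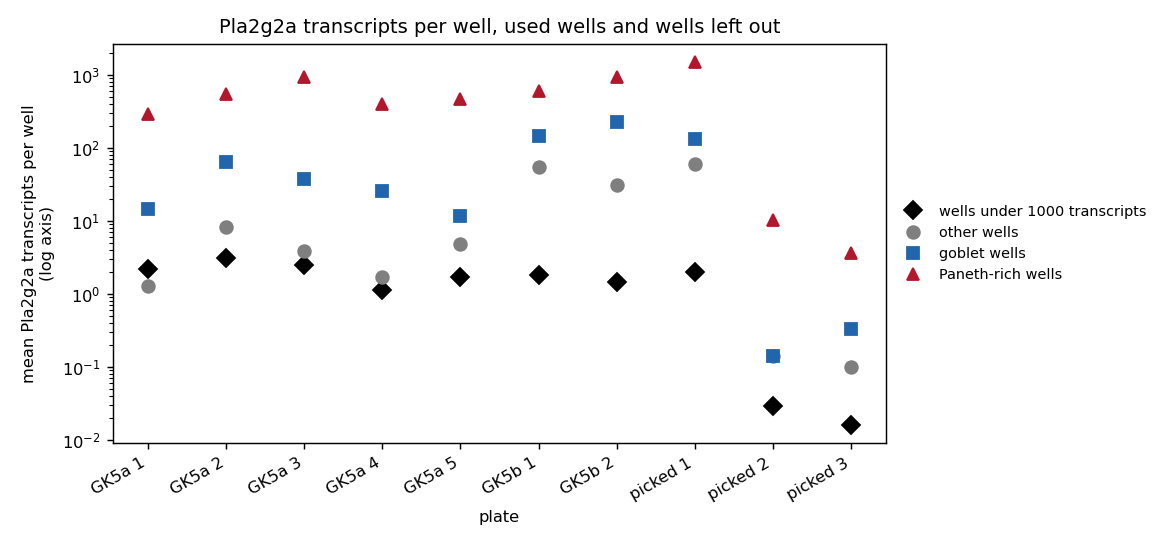
Mean number of Pla2g2a transcripts per well (logarithmic axis) in each plate, for wells under 1000 transcripts, other wells, goblet wells and Paneth-rich wells. Other wells lie at 1.29 to 8.16 in the GK5a plates, where the wells left out lie at 1.15 to 3.10, and at 54.7 and 31.5 in GK5b and 59.8 in picked replicate 1.

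The transcripts of other wells did not keep the ratio of Paneth-rich wells. Per Defa transcript, other wells held 2.78 to 8.58 Pla2g2a transcripts in GK5a, 16.9 and 10.1 in GK5b, 1.65 in picked replicate 1, and 0.0142 and 0.0125 in picked replicates 2 and 3. In each plate that is above the ratio of its Paneth-rich wells. The Defa share itself sets these classes, so the rule favours a lower ratio in Paneth-rich wells. No conclusion is drawn from the difference, and the part of the rule in it was not tested. Wells under 100 transcripts in GK5a lay between these classes, at 1.33 to 3.50, from only 2 to 14 Defa transcripts a plate.

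Among other wells, those with Atoh1 transcripts were among the highest in summed level. In GK5a, 84 wells with Atoh1 and without Lgr5 or another signature were at 2355 CPM, with plates from 985.5 to 3126 CPM, and 18 wells with both Lgr5 and Atoh1 were at 1273 CPM. Wells with Lgr5, the stem cell receptor, were at 351.0 CPM, enteroendocrine wells at 192.0, enterocyte wells at 118.8 and tuft wells at 90.1. The Atoh1 wells of GK5b were at 2989 CPM (93 wells) and those with both genes at 2977 CPM (26 wells), against 940.7 in Lgr5 wells, 740.4 in enteroendocrine wells and 836.5 in wells with none of these. By the median well they lay closer, at 866.9 and 912.8 CPM against 549.9, 578.5 and 638.9. In picked replicate 1 the 10 Atoh1 wells were at 14469 CPM, the 16 Lgr5 wells at 8091 and the 77 with none at 6839, and these last held more transcripts of the gene (3615) than the Atoh1 wells (1467). A picked well can hold cells of more than 1 type. In the Atoh1 wells of GK5a the median well had 1.00 transcript, so a few wells carry their level, which reached 24095 CPM in the highest well. Of the 390.8 transcripts in GK5a wells with both Lgr5 and Atoh1, 211.4 were in 1 well, and the median well was at 38.5 CPM.

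The other secreted phospholipases A2 were looked at in the same plates, in a fit over all genes (limma on log2(CPM + 1), Benjamini-Hochberg adjusted p under 0.05). Of 10779 genes tested, 3.88% were higher and 3.59% lower in GK5b than in GK5a, and 16.4% were higher and 18.9% lower in picked than in sorted plates. The balance of this second comparison moves with the scaling: with library totals in place of TMM factors, 1026 genes were higher and 3888 lower instead of 1763 and 2033, and over all genes the median log2 fold change was -0.38 instead of -0.08. With precision weights it was 1681 and 1231.

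Of 11 other members of the list, 10 were listed and 6 were tested. Between GK5b and GK5a, 2 were higher and 1 was lower, with a median log2 fold change of 0.26 against 0.01 over all genes. Pla2g10, a highly active group X enzyme, was at 88.4 ± 30.8 CPM (SD, n = 2) in GK5b and 23.3 ± 6.26 (n = 5) in GK5a (log2 fold change 1.94 ± 0.31 SE, limma adjusted p = 0.00274). Pla2g2f, 74.2 kb from Pla2g2a, was at 20.7 and 22.4 CPM in the GK5b plates and at 0.978 to 4.38 CPM in GK5a (2.86 ± 0.59, limma adjusted p = 0.0103). Pla2g12b, which lacks catalytic activity, was lower, at 17.3 ± 0.495 against 57.4 ± 11.3 CPM (-1.59 ± 0.23, limma adjusted p = 0.00160). Pla2g12a (-0.03), Pla2g2d (0.44) and Pla2g5 (0.08) were not called. Without GK5b replicate 1 none of the 6 passed (limma adjusted p = 0.146, 0.198 and 0.0601 for the 3 that had), and without GK5b replicate 2 Pla2g2f did not pass. This comparison moves with the make-up of the plates: 15 of 19 goblet genes were higher in GK5b with a median log2 fold change of 1.95, and 8 of 12 enterocyte genes and 3 of 9 tuft genes were lower. Their part in the changes of the list was not tested.

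Between picked and sorted plates, 2 members were higher and 2 lower, with a median of 0.06 against -0.08 over all genes. Pla2g2d, 49.8 kb from Pla2g2a, had 22.7, 40.2 and 19.8 CPM in picked replicates 1, 2 and 3 and was at 1.87 to 6.84 CPM in sorted plates (2.73 ± 0.34, limma adjusted p = 7.10e-05), so it was high also in the plates where Pla2g2a was low. Pla2g12a was at 50.3 ± 8.46 against 43.8 ± 3.89 CPM (0.52 ± 0.17, limma adjusted p = 0.0328); this call was lost in 7 of 16 other settings. Pla2g10 (-1.29 ± 0.26) and Pla2g12b (-0.96 ± 0.19) were lower (limma adjusted p = 0.00208 and 0.00186), and both calls were lost with a fit of 2 groups, picked against all sorted, that of Pla2g10 also with precision weights. With library totals the list's median was -0.25, against -0.38 over all genes, with 1 higher and 3 lower. Pla2g2c had 7 transcripts over all plates and was not tested.

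By class, these genes were found mostly outside Paneth-rich wells or in few transcripts. Pla2g10 was at 216.4 and 206.4 CPM in the goblet wells of GK5a and GK5b and had 1 transcript in the Paneth-rich wells of each. Pla2g2f was at 45.2 CPM in the goblet wells of GK5b from 150.1 transcripts, and at 6.401 CPM in those of GK5a from 5. In Paneth-rich wells it had 5 transcripts each in GK5a, GK5b and picked replicate 2, 15 in picked replicate 1 and 1 in picked replicate 3. Pla2g2f was thus seen in the Paneth-rich wells of both picked replicate 1 and picked replicate 2, at 51.9 and 61.7 CPM. Pla2g12b and Pla2g5 were mostly in other wells, with 527.3 and 382.2 transcripts there in GK5a.

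The nearest annotated genes around Pla2g2a were mostly low or not listed. Of 5 on each side, Gm25280, Gm13030 and Pla2g2e were not listed in any table. Ubxn10, at 94.7 kb, was at 0.859 to 8.84 CPM and Otud3, at 60.2 kb, at 1.67 to 12.03 CPM. Rnf186, a ubiquitin ligase at 132 kb, was at 110.3 to 147.6 CPM in the sorted plates and had 60.1, 131.5 and 133.3 CPM in picked replicates 1, 2 and 3. Tmco4, at 138 kb, was at 49.5, 25.6 and 41.3 CPM in the picked plates and 29.3 to 44.5 CPM in the sorted ones. Pla2g5, which spans Pla2g2a, had 14.6, 37.7 and 25.8 CPM there. None of these with a level above 10 CPM had the order of Pla2g2a, in which picked replicate 1 stands highest and picked replicates 2 and 3 lowest of all plates.

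Other enzymes of the pathway were also compared between the sorted codes, where 3.88% of all tested genes were higher and 3.59% lower in GK5b. Of 14 tested cytosolic, calcium-independent and other phospholipases A2, 0 were called between GK5b and GK5a (limma). Of 12 eicosanoid genes 1 was higher, the prostaglandin receptor Ptger4 (1.00 ± 0.24, limma adjusted p = 0.0232), and 2 were lower, the carbonyl reductase Cbr1 (-0.73) and Lta4h, which makes leukotriene B4 (-0.80). Their median was -0.76, against 0.01 over all genes. Of 12 lysophospholipid and reacylation enzymes 2 were lower, Acsl5 (-0.99) and Lpcat3 (-0.90), with a median of 0.27. Without GK5b replicate 1 none of these 5 calls remained, those of Acsl5 and Cbr1 were lost without GK5b replicate 2, and that of Ptger4 without GK5a replicate 4.

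Between picked and sorted plates, 1 of the 14 phospholipases was higher, Pla2g4b (1.26 ± 0.34), and 3 were lower, Pnpla8 (-0.93), Plaa (-0.61) and Pla2g4a (-0.59). Of the eicosanoid genes Ptges2, a prostaglandin E synthase, was higher (1.04 ± 0.22) and Hpgd (-1.02) and Ptgr1 (-0.61), which break prostaglandins down, were lower. Of the lysophospholipid enzymes Lypla2 was higher (0.86 ± 0.15) and Lypla1 (-0.80), Acsl3 (-0.62) and Lpcat3 (-0.41) were lower. The medians of these lists were -0.08, -0.08 and -0.38. With library totals they were -0.39, -0.38 and -0.67, against -0.38 over all genes, with 1 higher in each and 7, 4 and 6 lower. The call of Pla2g4a was lost in 8 and that of Lpcat3 in 7 of 16 other settings. That of Pla2g4b was lost without picked replicate 2, and that of Acsl3 without picked replicate 1 or picked replicate 2.

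Of the secreted Paneth list, 19 genes were tested in plate sums. In GK5b 3 were higher than in GK5a, Mmp7 (2.34 ± 0.49), Spink4 (2.42 ± 0.31) and Reg4 (1.33 ± 0.36), and Reg3a was lower (-2.50 ± 0.55). Spink4 alone of these kept its call without GK5b replicate 1 (limma adjusted p = 0.0498) and also without GK5b replicate 2, and the call of Reg4 was lost in 7 of 16 other settings. In picked plates 7 were higher, among them Ang4 (3.29 ± 0.49, limma adjusted p = 2.90e-04), Clps, a colipase (2.91 ± 0.61), Pnliprp2, a pancreatic-type lipase (2.02 ± 0.55), and Nupr1 (1.91 ± 0.43), and 0 were lower, with a median of 1.07. Without picked replicate 1, 5 of 18 tested were higher and 3 lower, with a median of 0.12.

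In sums over goblet wells alone, 0 of 3119 tested genes were called between GK5b and GK5a in either direction (limma, 0% higher and 0% lower), and 81 had an unadjusted p under 0.05. This fit shares its spread with the picked goblet wells, which held only 24369 to 110245 transcripts a plate. Mmp7, at a log2 fold change of 1.22 ± 0.37 SE, was not called, so the absence of calls does not show equal levels. With no filter on low values 454 of 13926 were called, all of them higher in GK5b. The goblet sums were far deeper there, at 2089899 and 1227410 transcripts against 83467 to 231193 in GK5a. The part of this depth in these calls was not tested. A fit on Paneth-rich wells was not made, because GK5b has 1 plate with at least 3 such wells.

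Genes whose plate sums followed Pla2g2a most closely were sought over the 10 plates among 10778 other genes, by Pearson's r of log2(CPM + 1). The top 5 were Stk4, a kinase of the Hippo pathway (0.965), Tor1aip1, a protein of the nuclear envelope (0.945), Habp2 (0.918), Heatr1 (0.916) and Tbc1d8 (0.916). Their range between plates was small beside that of Pla2g2a, which spans 38.7 to 15771 CPM. Stk4 went from 17.2 to 55.2 CPM and Tor1aip1 from 17.2 to 29.3 CPM, both lowest in picked replicate 3. Habp2 went from 3.44 CPM in picked replicate 3 and 3.65 in picked replicate 2 to 50.4 in picked replicate 1. All points share the experiment code within their group, and picked replicates 2 and 3 weigh heavily in each r.

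The order of the familiar markers differed. Over the 10 plates r was 0.764 for Muc2, 0.635 for Mmp7, 0.604 for Tff3, 0.406 for Agr2, 0.257 for Lyz1 and -0.333 for Ang4. Over 27 units of plate and class with at least 5 wells, the closest were Habp2 (0.845), Nucb2, a calcium-binding nucleobindin (0.824), Cd24a, a surface antigen of Paneth cells (0.764), St3gal1, a sialyltransferase (0.763), and Gm10104 (0.761), and r was 0.720 for Mmp7, 0.662 for Lyz1, 0.419 for Ang4, 0.385 for Muc2, 0.070 for Tff3 and -0.015 for Agr2. Units of 1 plate share a library.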

How the data were processed

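The values analysed are molecule estimates per gene and well in 10 deposited tables. BWA 0.6.2-r126 and the build mm10 are named in the submitters' processing notes; which program counted, with what strand option and well filter, is not stated in those notes or the labels. The deposited values are not whole, but 100% of them are whole, within 0.001, after undoing the authors' correction for shared barcodes with 4096 barcodes; their unit, per the file headers, was entered as other, because the wells are headed by numbers only, and no count model was run. Spike-ins were left out. The 14 chi-square comparisons of plates within a group gave 4.27 to 23.2 per degree of freedom, so none was treated as a repeat.

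Levels are summed transcripts as CPM. Plate sums were scaled with TMM factors and tested with limma 3.58.1 in R 4.3.3 (lmFit, eBayes with trend, log2 of CPM + 1) with all 10 plates in 1 fit; genes needed 10 transcripts at the median plate total in 2 plates and 15 in total. The fit was also run on simulated counts with the same spread for every gene and plate, which says nothing about the spread of these plates. Fold changes on this scale understate changes of low genes. Named genes are Pla2g2a, the 5 most alike by each measure, 6 markers, up to 4 called members per list, 5 neighbours on each side and the detected secreted phospholipases A2; the Paneth genes of Paneth-rich wells and the genes compared over goblet wells were named after their values were seen. The gene, the classes and the lists were chosen with earlier results of these data known. No doublet caller was run. Depth per plate was 821829 to 4832581 transcripts, and intervals cover counting error only. Transcript models were read from GENCODE M21; no mature protein or promoter entry was used.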

Additional observations from a re-analysis of the deposited data

Results flagged for a closer look

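Among the other wells of the 5 GK5a plates, replicate 3 stood apart from its group: it held 8.58 Pla2g2a transcripts per Defa transcript, while the other 4 plates held 2.78 to 3.89. The gap to the nearest plate was 0.808 of the range of the group, above Dixon's 95% limit for 5 samples. This plate had 94.0 Defa transcripts in its other wells and 1 Paneth-rich well. Chance alone marks about 1 in 20 groups in this way.

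Wells with under 1000 transcripts enter no comparison, and Pla2g2a was above the level that a count of 0 allows in 9 of 10 plates there. Its level was 8594, 20282, 8907, 4680 and 7788 CPM in GK5a replicates 1 to 5, 11308 and 6617 CPM in GK5b replicates 1 and 2, 20925 CPM in picked replicate 1 and 178.7 CPM in picked replicate 2. Picked replicate 3 held 3 transcripts, 124.1 CPM, which equals its limit. The left-out wells thus show the order of the plates that the used wells show for picked replicate 1 against picked replicates 2 and 3.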

How the results depend on the processing

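Of 58 alternative settings for the sorted levels of Pla2g2a with 2 or more plates, those that leave out a plate not counted, 48 moved the mean by less than its spread. In the picked plates the spread exceeds the mean, so such a count says nothing there. Leaving out 1 plate gave 995.3 to 21196 CPM in their Paneth-rich wells, 54.8 to 5485 in goblet wells and 24.5 to 3781 in other wells, the lowest of each without picked replicate 1. In the sorted plates it gave 75504 to 89229 CPM (Paneth-rich, GK5a), 4018 to 5428 and 10450 to 16644 (goblet, GK5a and GK5b), and 311.6 to 455.8 and 1674 to 2224 (other). The Paneth-rich level with Defa genes, goblet genes and Pla2g2a taken out of the total was 107424 CPM in GK5a and 93390 CPM in GK5b, the latter from 1 plate. Goblet wells without Defa transcripts were at 2115 CPM in GK5a and 6299 CPM in GK5b. Other wells of GK5a were at 793.9 CPM with a Defa threshold of 10% and at 832.2 CPM as a mean of CPM per well. Other wells of GK5b were at 2359 CPM with a Defa threshold of 10%, 1277 and 4080 CPM with a goblet threshold of 1% and 4%, 2547 CPM as a mean per well and 1091 CPM without Defa transcripts. Thinned to 1000 transcripts, the share of wells with the gene was 52.78% instead of 86.11% in picked Paneth-rich wells, 61.53% instead of 83.72% and 97.35% instead of 100% in goblet wells of GK5a and GK5b, and 21.60% instead of 54.39% and 58.03% instead of 99.40% in their other wells. Over plates with at least 3 wells of each class, the order of the classes held in each setting but for picked replicate 2 with a goblet threshold of 4% and as means per well. Genes called between GK5b and GK5a numbered 805, but 496 with no filter, 1811 with precision weights and 1384 in a fit of 2 groups. Leaving out 1 plate gave 38 to 1090, with 38 without GK5b replicate 1 and 496 without GK5b replicate 2. In goblet wells 454 were called with no filter instead of 0. Apart from the choices that these settings themselves make, the cause was not tested. The 4 alternatives for Paneth-rich-well gene tests were not run, since 1 GK5b plate has enough such wells. Settings for left-out wells, cycling transcripts and wells without Defa were chosen after seeing the data. No paired analysis was possible because replicate numbers of GK5b and picked plates were given in the order of the records and do not link plates across groups. The low counts in picked replicates 2 and 3 (1 and 5 transcripts in goblet wells) limit what their levels can show.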
